A study of Mus musculus with 12 samples.

Results

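Input libraries are the chromatin that was sheared and sequenced without an antibody. Here 6 of the 12 libraries of a mouse H3K9me2 study were chosen as inputs by their labels, 1 for each of 6 mice, and compared between mouse groups. The other 6 libraries are the H3K9me2 chromatin immunoprecipitations (ChIP) of the same mice. The tissue was prefrontal cortex of C57BL/6 mice aged 5 to 6 months, cross-linked in 1% formaldehyde for 12 min. The 3 groups, each of 2 mice, were wild type (WT), mice labelled FAD for familial Alzheimer's disease, and FAD mice treated with BIX01294 (FAD-BIX), which blocks EHMT1 and EHMT2, the enzymes that place most H3K9me2. The labels give no allele, transgene promoter, line or sex for the FAD mice and no dose or vehicle for BIX01294, so FAD and FAD-BIX mice share a genotype only as far as the word FAD says. Input DNA carries no expression, so the labelled tissue was not checked with marker genes. The comparisons ask which loci differ before any antibody is used.

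The number of input reads at a locus follows how many copies of it a genome holds, how well its fragments are recovered, and how uniquely they align. A transgene built from mouse sequence adds reads at the native gene it was taken from. Repeats that the reference assembly holds in fewer copies than the genome gather reads at the copies it does hold. A ChIP-seq peak caller sets the ChIP reads of a region against its input, so the input decides in part which regions are listed. Thy1 encodes a glycoprotein of the neuronal surface, and its promoter and introns are widely used as a cassette to drive transgenes in neurons, among them some used in mouse lines that model Alzheimer's disease.

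The places at which inputs differed most included a unique gene and families of near-identical copies, and 3 RefSeq sequences of the GRCm38.p6 build show both kinds. The first is the stretch just before the start of Gm39323, a long non-coding RNA gene that runs away from Thy1 on the opposite strand (chr9:44042185-44042434, minus strand). Its 206 capitals are the bases that lie inside the upstream Thy1 region described below. The other sequences are the stretches before the starts of Speer4e (chr5:14938476-14938725, minus strand) and Gm17019 (chr5:15033008-15033257, minus strand), members of a rodent array of spermatogenesis-associated genes. They have the same base at 242 of 250 positions (96.8%), and the capitals mark the 8 that differ.
Gm39323: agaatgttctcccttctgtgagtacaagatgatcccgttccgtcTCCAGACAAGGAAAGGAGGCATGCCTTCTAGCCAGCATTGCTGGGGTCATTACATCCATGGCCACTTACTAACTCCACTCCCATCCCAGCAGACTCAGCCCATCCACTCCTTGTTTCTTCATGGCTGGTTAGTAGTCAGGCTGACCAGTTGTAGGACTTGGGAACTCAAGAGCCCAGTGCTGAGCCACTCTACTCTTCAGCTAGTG
Speer4e: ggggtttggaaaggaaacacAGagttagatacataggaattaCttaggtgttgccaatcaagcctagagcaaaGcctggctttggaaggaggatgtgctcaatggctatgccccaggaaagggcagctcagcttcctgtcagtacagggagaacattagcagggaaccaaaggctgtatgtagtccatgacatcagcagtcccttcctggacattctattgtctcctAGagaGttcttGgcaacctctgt
Gm17019: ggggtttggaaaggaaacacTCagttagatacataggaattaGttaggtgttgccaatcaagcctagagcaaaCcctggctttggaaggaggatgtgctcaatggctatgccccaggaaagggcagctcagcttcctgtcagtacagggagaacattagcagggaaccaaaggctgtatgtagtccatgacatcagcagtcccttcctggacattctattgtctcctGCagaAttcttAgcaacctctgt

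The inputs held 23758612 and 17334027 reads in WT, 14355441 and 15092062 in FAD and 14701558 and 13923698 in FAD-BIX mice. The files give reads only in regions called from ChIP libraries, 33613 in the FAD versus WT table and 43392 in the FAD-BIX versus FAD table, on autosomes and unplaced contigs. Between 0.773% and 1.24% of an input's reads fell in these regions, so that the median region had 2 to 5 reads of an input and 6.46% to 32.3% of the regions held no read of an input. Levels are given as RPM, the reads of a region scaled to the total of the library. With each pair scaled to its summed reads in the regions, inputs of 1 group differed from each other about as much as inputs of different groups. This scaling, unlike RPM, takes out a shift shared by all regions. In the FAD versus WT table the regions took 0.931% and 1.07% of the reads of the WT inputs and 0.839% and 0.773% of the FAD inputs. Over regions with at least 5 reads summed over a pair of inputs, the mean squared difference was 2.07 times counting noise between the WT inputs, 2.20 and 2.38 times between the FAD inputs in the respective tables and 2.39 times between the FAD-BIX inputs. Pairs from different groups had 1.93 to 2.39 times counting noise. The 2 mice of a group are the replicates, and with 2 against 2 an exact permutation test cannot give a p under 0.333.

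One library stood apart from the others labelled FAD at Thy1, as the values below show. The input labelled FAD 1 lacked the excess that the input of FAD mouse 2 and both FAD-BIX inputs held there. The main FAD values are therefore also given without it.

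No single region passed the test between groups. Of the 33613 regions, 1007 had enough reads to be tested between FAD and WT inputs, and 0 passed an adjusted p of 0.05 with edgeR's quasi-likelihood test (0% in either direction, smallest adjusted p 0.722). At an unadjusted p under 0.05, 5 regions were higher in FAD inputs (0.497% of those tested) and 57 lower (5.66%). DESeq2 with library totals also called 0, and at that p it had 4 higher and 22 lower. Between FAD-BIX and FAD inputs, 725 of the 43392 regions were tested and edgeR again called 0 (0%, smallest adjusted p 0.996). At an unadjusted p under 0.05, the FAD-BIX inputs were higher in 5 (0.69%) and lower in 1 (0.138%). DESeq2 with library totals called 0 there too, and at that p it had 2 higher and 1 lower. The comparisons share the FAD inputs.

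Summing the regions of each megabase gave the test more reads. Of 2054 bins or contigs tested between FAD and WT, edgeR called 1 higher in FAD (0.0487%, adjusted p = 0.000114) and 0 lower (0%), and at an unadjusted p under 0.05 there were 4 higher (0.195%) and 300 lower (14.6%). The bin called holds a single region, upstream of Thy1. DESeq2 with library totals did not call it and called 1 other bin, on chromosome 8 from 20 to 21 Mb, lower in FAD. At an unadjusted p under 0.05 DESeq2 had 1 higher and 102 lower. Between FAD-BIX and FAD inputs 0 of 2062 bins passed with edgeR (0%), and an unadjusted p under 0.05 was reached by 6 higher (0.291%) and 3 lower (0.145%). DESeq2 with library totals called 0, and at that p it had 2 higher and 0 lower.

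The lower FAD values were spread over the genome and moved with which ChIP library had called a region. The median log2 fold of FAD over WT inputs was -0.26 over tested regions and -0.35 over bins with library totals, and 0.10 and 0.01 with TMM factors, which centre it. Without the input labelled FAD 1 the medians with library totals were -0.87 over the 4238 regions then tested and -0.49 over bins. With TMM factors an unadjusted p under 0.05 was reached by 66 bins higher and 49 bins lower in FAD. In all 8 sets of regions called in 1 ChIP library alone, that mouse had the lowest input of the 4. For the 3122 regions called only in the ChIP labelled FAD 1, its own input had a mean of 0.0715 RPM, against 0.233 to 0.261 in the other inputs. For the 9655 regions called only in FAD-BIX ChIP 2, its own input had 0.0505 RPM, against 0.191 to 0.222. The sign of the difference between groups went with the caller. The log2 ratio of FAD to WT input was -0.59 and -0.50 in regions called in 1 FAD library alone, and 0.22 and 0.29 in those called in 1 WT library alone. For FAD-BIX over FAD it was -0.50 and -0.52 in regions called in 1 FAD-BIX library alone, and 0.50 and 0.42 in those called in 1 FAD library alone. Regions called in FAD ChIP 2 alone made up 60.3% of the FAD versus WT table and 44.9% of the other. Regions called in FAD ChIP 2 were then left out, a choice made after these values were seen. Of 2054 bins tested with them, 300 were lower in FAD and 4 higher. Of 1398 tested without them, 10 were lower and 18 higher, and the median log2 fold was 0.04. Between FAD-BIX and FAD, 6 of 2062 bins were higher and 3 lower with them. Without them 0 of 1652 were higher and 51 lower, with a median of -0.35. This choice drops regions by the calls of 1 FAD mouse, so it does not treat the groups alike.

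**Figure D1:**
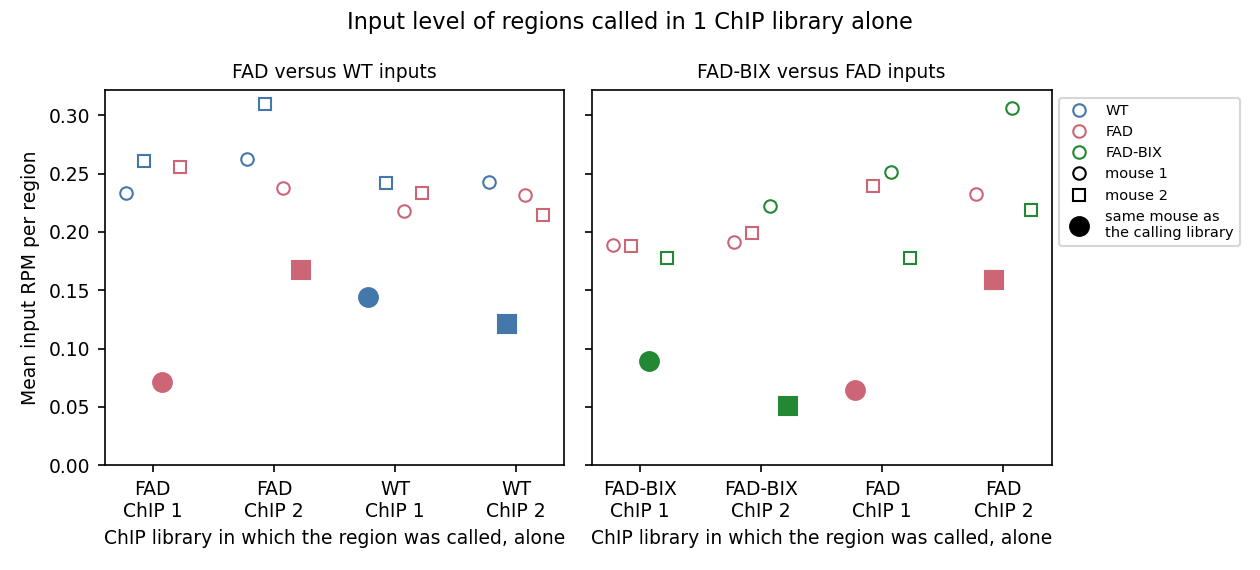
Mean input RPM (vertical axis) of regions called in 1 ChIP library alone, by the calling library (horizontal axis), in the FAD versus WT table (left) and the FAD-BIX versus FAD table (right). Each point is the mean over regions of 1 input, and large filled points are the input of the calling mouse. In all 8 sets the filled point is the lowest, from 0.0505 to 0.167 RPM.

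Thy1 gave the largest ratio of 1 input to the next in the FAD versus WT table, and it separated mice rather than groups. At the region centred at -1150 bp from the transcription start (chr9:44042078-44042390, the FAD versus WT table), the WT inputs held 2 and 12 reads, the input labelled FAD 1 held 9 and FAD input 2 held 363. These were 0.0842, 0.692, 0.627 and 24.1 RPM. FAD input 2 stood 34.7-fold above the next input, and the input labelled FAD 1 lay between the WT inputs, so the groups overlapped. The log2 fold was 5.06 ± 1.78 (SE of the edgeR fit, 2 against 2), with an adjusted p of 0.722 in the test of regions. The bin that holds only this region gave 5.12 ± 0.76. Without FAD input 2 the log2 fold of the region was 0.75 and no bin was called. Without the input labelled FAD 1 it was 6.04, with an adjusted p of 1.73e-27, where the lone FAD library is assumed to vary like the others.

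The FAD-BIX versus FAD table listed 3 regions at Thy1, and each had the same order of mice. In the region over the promoter, first exon and first intron (chr9:44042877-44045067, 1684 of its bases inside the gene), the input labelled FAD 1 held 31 reads, FAD input 2 held 2697 and the FAD-BIX inputs 2690 and 1314. These were 2.16, 179, 183 and 94.4 RPM. In the region over the end of the gene and the sequence after it (chr9:44047581-44049759, 998 bases inside the gene and 1180 beyond it), they held 17, 2450, 2759 and 1252 reads. In the upstream region (chr9:44042064-44042390, the one marked in the Gm39323 sequence) they held 9, 371, 479 and 260 reads. The lowest of the other 3 inputs was 29.8, 43.7 and 75.9 times the input labelled FAD 1 from the upstream region to the last. Regions were called on both sides of a gap of 2514 bp inside the gene, and reads in that gap are not analysed here.

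At Thy1 the FAD mice differed from each other by more than the FAD and FAD-BIX groups did. For the intron region the log2 fold of FAD-BIX over FAD was 0.62 ± 1.32 (SE of the edgeR fit, adjusted p = 0.996), and the groups overlapped. It became -0.37 without the input labelled FAD 1 and 6.00 without FAD input 2. Per kilobase, FAD input 2 held 205 times the median of the 247 autosomal regions of at least 1 kb, FAD-BIX input 1 held 137 times and FAD-BIX input 2 held 114 times, while the input labelled FAD 1 held 2.34 times. These ratios are not copy numbers, since the median is taken over regions called in ChIP libraries. FAD-BIX input 1 exceeded FAD-BIX input 2 by 1.94-fold here. Over the 100 regions of highest input outside Thy1 that ratio had a median of 1.54 and quartiles of 1.16 and 1.88, and 22 of them reached the ratio at Thy1.

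The ChIP libraries of the same mice showed the same split. At the intron region the ChIP labelled FAD 1 held 0.16 RPM, and FAD ChIP 2 and the FAD-BIX ChIP libraries held 265, 184 and 186 RPM. ChIP over input was 1.48 in FAD mouse 2 and 1.00 and 1.98 in the FAD-BIX mice. Thy1 also set the share of chromosome 9. In the FAD-BIX versus FAD table this chromosome took 3.57% of the region reads of the input labelled FAD 1, 6.91% of FAD input 2 and 6.50% and 5.70% of the FAD-BIX inputs. Without the Thy1 regions the shares were 3.53%, 3.30%, 3.37% and 3.42%.

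**Figure D2:**
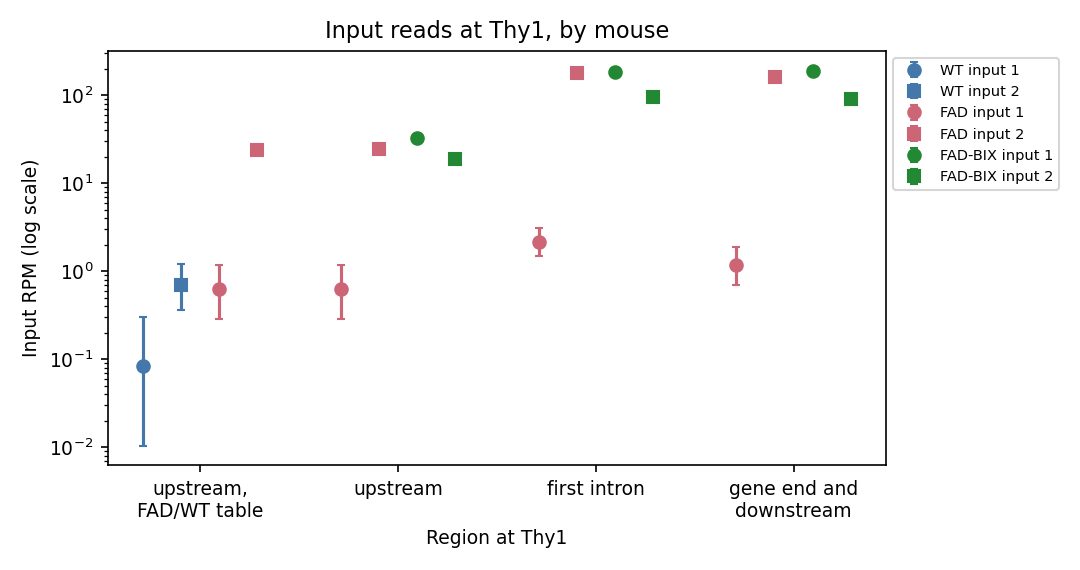
Input RPM on a log scale (vertical axis) at the regions listed at Thy1 (horizontal axis), the first from the FAD versus WT table and the others from the FAD-BIX versus FAD table. Each point is 1 mouse with its exact 95% Poisson interval. FAD input 2 and both FAD-BIX inputs lie between 18.7 and 188 RPM, and the input labelled FAD 1 and the WT inputs at or below 2.16 RPM.

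Whether App, which encodes the amyloid precursor protein, held such an excess could not be seen, because no region lay inside the gene. App was the closest named gene of 2 regions in the FAD versus WT table, both upstream of it. They were centred at -101946 and -115711 bp from its transcription start, so their reads do not count copies of the gene itself. At chr16:85275497-85275809 the inputs held 8 and 7 reads in WT and 1 and 0 in FAD, and at chr16:85289275-85289561 they held 4 and 5 in WT and 3 and 0 in FAD. All inputs of the 3 App regions of the other table, the nearest at -29299 bp, held at most 7 reads. These counts were too low to be tested.

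A block of chromosome 8 held fewer input reads in both FAD mice than in both WT mice. It lies between 20 and 21 Mb, among the defensin genes of innate immunity, and RefSeq lists 25 genes there, of which 14 are pseudogenes. Its 69 regions together held 89.1 and 87.6 RPM in the WT inputs and 49.9 RPM in the input labelled FAD 1 and 39.3 in FAD input 2, from 593 to 2117 reads per input. The groups did not overlap, and the exact 95% Poisson intervals of the FAD inputs (46.4 to 53.7 and 36.2 to 42.6 RPM) lay below those of the WT inputs (85.3 to 93.0 and 83.2 to 92.1), counting error only. How many of all bins had groups that did not overlap was not counted, and the median log2 fold over bins was -0.35. WT inputs held 1.98 times the FAD level on average, against 1.26 times in the rest of chromosome 8 and 1.24 times in all other regions. The bin ranked 28 by p among all bins, and bins with fewer reads ranked above it with larger ratios, 2.44 at 174 to 175 Mb of chromosome 1 (238 reads) and 2.30 at 35 to 36 Mb of chromosome 6 (263 reads) among them. The log2 fold was -0.99 ± 0.31 (SE of the edgeR fit), with an adjusted p of 0.2. It was -0.63 with TMM factors (edgeR adjusted p = 0.826) and -0.63 with DESeq2's own size factors (DESeq2 adjusted p = 0.9995). DESeq2 with library totals called this bin (adjusted p = 0.0182). So did edgeR with the replicate number as a block (adjusted p = 0.000482), though same-numbered inputs were not taken as pairs. The block was not called with any 1 input left out, with log2 folds from -1.17 to -0.82. Without the input labelled FAD 1 the value was -1.17.

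The difference varied with the group that had called the regions. In the 34 regions called in WT only the WT inputs held 35.5 and 19.4 RPM and the FAD inputs 21.7 and 13.1, so the groups overlapped, and 9 regions had both FAD inputs below both WT inputs. In the 22 regions called in FAD only they held 26.0 and 35.1 RPM in WT and at most 17.6 in FAD, with 12 regions below. In the 13 called in both groups they held 27.7 and 33.1 RPM in WT and 10.7 and 11.1 in FAD, with 11 below. The groups did not overlap in these last sets. Over all 69 regions, 32 had both FAD inputs below both WT inputs, against 24.9% of all 33613 regions, and 2 had them above, against 10.3%. Among the 42 tested regions of the block 25 lay below, against 30.1% of all tested regions, and 2 above, against 4.67%. The block was noticed in these data before these counts were made.

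Within the block the difference varied by position. In windows of 200 kb from 20 Mb on, WT held 2.54, 1.79, 2.42, 1.88 and 0.993 times the FAD level. Both FAD inputs were below both WT inputs in 11 of 16, 4 of 14, 12 of 17, 3 of 10 and 2 of 12 regions of these windows, and in the last window 2 regions had them above. The summed groups overlapped in the second window (14.8 and 7.50 RPM in WT, 7.73 and 4.70 in FAD) and in the last (8.88 and 11.1 in WT, 11.3 and 8.81 in FAD). The last window holds AY761185, a gene of the defensin family. A region 3493 bp from it (chr8:20948241-20948615) had 11 and 4 reads in WT and 19 and 15 in FAD inputs, with a log2 fold of 1.69 ± 0.58 (edgeR adjusted p = 0.722). The region with the smallest p of the whole table lies in the first window, 22429 bp from the pseudogene Gm21811 (chr8:20113231-20113853). It held 58 and 32 reads in WT and 6 and 6 in FAD inputs, a log2 fold of -2.38 ± 0.49 (edgeR adjusted p = 0.722). In the third window, the region at chr8:20516495-20517315, 4446 bp from the RNA gene Gm40467, held 181 and 177 reads in WT and 39 and 58 in FAD, and was called in all 4 ChIP libraries. The region at chr8:20593350-20593687, 1910 bp from the pseudogene Gm21112, held 42 and 37 reads in WT and 7 and 6 in FAD.

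The neighbouring megabases varied. From 18 to 19 Mb, over 15 regions and 225 reads, the inputs held 3.33 and 5.25 RPM in WT and 1.88 and 1.86 in FAD, so that WT held 2.30 times the FAD level (log2 fold -1.18 ± 0.32, edgeR adjusted p = 0.136). From 19 to 20 Mb the inputs held 23.1 and 26.9 RPM in WT and 17.7 and 14.3 in FAD (log2 fold -0.64 ± 0.27, edgeR adjusted p = 0.293), and without the regions called in FAD ChIP 2 the log2 fold was -0.05. The block itself gave -0.81 without them. From 21 to 22 Mb they held 2.02 and 4.04 RPM in WT and 2.65 and 1.72 in FAD, and the groups overlapped.

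The FAD-BIX inputs lay with the FAD inputs at this block. In the FAD-BIX versus FAD table its 48 regions held 37.5 and 34.2 RPM in FAD and 41.0 and 33.3 in FAD-BIX inputs, with a log2 fold of 0.05 ± 0.40 (edgeR adjusted p = 0.997). For 40 regions listed in both tables, matched at 50% reciprocal overlap, the 6 inputs can be set side by side, though the tables were made separately and no test was run across them. The WT inputs held 62.8 and 70.5 RPM, the FAD inputs 32.3 and 27.5, and the FAD-BIX inputs 35.7 and 30.1. Both FAD-BIX inputs were below both WT inputs in 25 of the 40 regions, against 18.4% of 24602 matched regions in all, and both FAD inputs in 24 of the 40, against 30.2%. In sum over these regions, the 4 mice labelled FAD, treated or not, lay below the 2 WT mice. In the ChIP libraries of the FAD versus WT table the same 69 regions held 132 and 162 RPM in WT and 86.0 and 123 RPM in FAD.

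**Figure D3:**
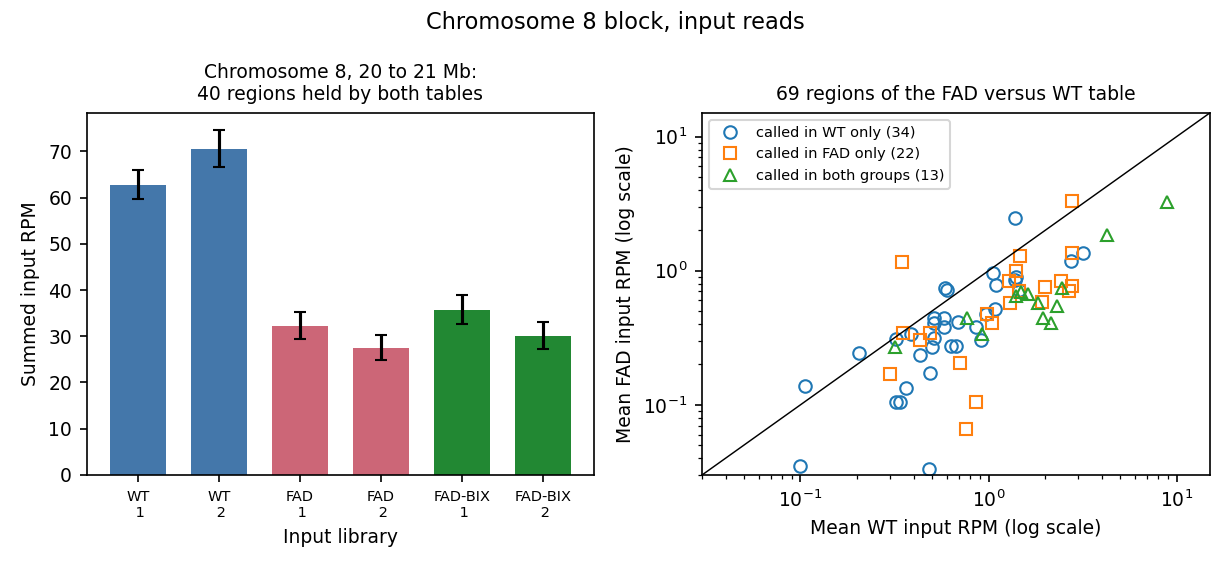
Left, summed input RPM of the 40 chromosome 8 regions held by both tables (bars, with exact 95% Poisson intervals) in each of the 6 inputs. The WT inputs stand at 62.8 and 70.5 RPM and the other 4 between 27.5 and 35.7. Right, mean FAD against mean WT input RPM (log scales) of the 69 regions of the FAD versus WT table by the group that called them, with the line of equality and 1 region without FAD reads drawn at the lower edge.

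A block of chromosome 5 stood high in a single mouse. The bins from 14 to 16 Mb hold members of the Speer4 array, whose paired sequences are printed above, and the first also holds other genes, Pclo and Sema3e among them. From 15 to 16 Mb the input labelled FAD 1 held 55.7 RPM over 47 regions (799 reads), against 28.0 and 22.6 in WT and 20.5 in FAD input 2. In the 49 regions of the other table it held 55.4 RPM, against 17.7 in FAD input 2 and 27.9 and 19.8 in FAD-BIX inputs. It was thus 1.99 times the next input in both tables. It was the highest input in 37 of the 47 regions and 32 of the 49, while over all regions it was the highest in 8394 of 33613 and 11714 of 43392. From 14 to 15 Mb it was 1.72 and 1.49 times the next input, and from 16 to 19 Mb 0.844 and 0.850 times. The groups overlapped in each comparison. For the bin from 15 to 16 Mb the log2 fold of FAD over WT was 0.59 ± 0.33 and turned to -0.30 without the input labelled FAD 1. That of FAD-BIX over FAD was -0.62 ± 0.39 and turned to 0.43.

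In single regions of these bins the input labelled FAD 1 was also the highest. At chr5:14940531-14941316, 2056 bp before Speer4e, the inputs held 24 and 13 reads in WT, 53 in the input labelled FAD 1 and 6 in FAD input 2, and 12 and 6 in FAD-BIX mice. At chr5:14989187-14989832, near Gm10354, they held 14 and 8 reads in WT and 52 and 15 in FAD, a log2 fold of 2.11 ± 0.73 (edgeR adjusted p = 0.722). The copies of this array are alike enough that reads of 1 may have been placed at another, so the level of a single copy is uncertain.

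**Figure D4:**
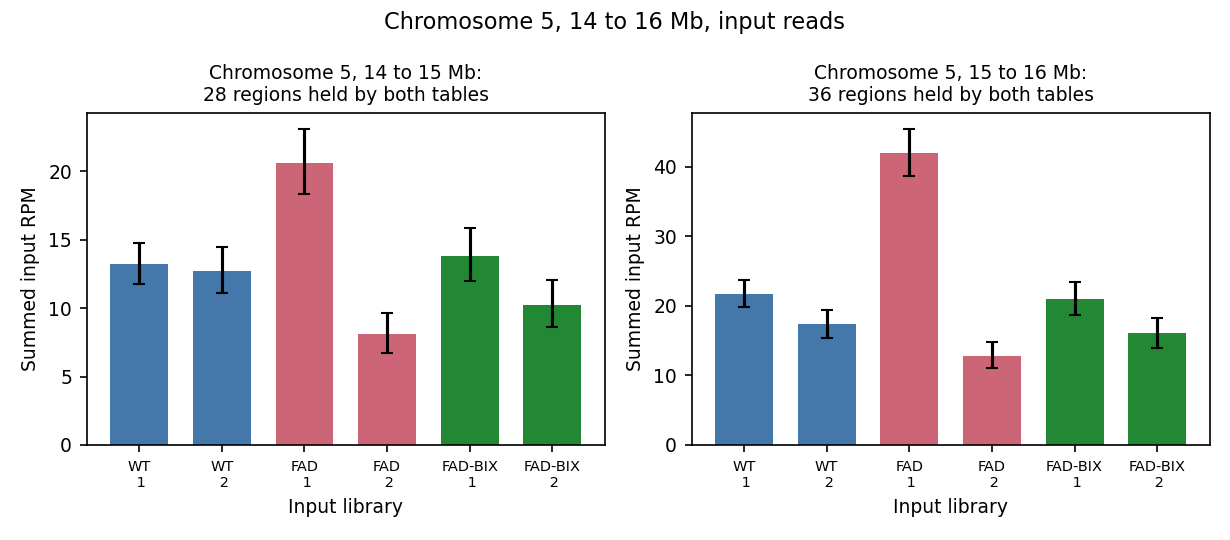
Summed input RPM (bars, with exact 95% Poisson intervals) over the chromosome 5 regions held by both tables, from 14 to 15 Mb (left, 28 regions) and from 15 to 16 Mb (right, 36 regions), in each of the 6 inputs. The input labelled FAD 1 is the highest in both, at 20.6 and 41.9 RPM.

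Places at which 1 input stood apart were few, and the Thy1 regions and some of the chromosome 5 block were among them. By a rule of at least 4 times the next input and at least 20 reads, 7 regions of the FAD versus WT table and 13 of the other were high in 1 mouse. Regions where the next lowest input was at least 4 times higher, and at least 10 reads would have matched it, numbered 22 and 20. Of these 42 low cases, 32 had been called in the ChIP library of the mouse with the low input. Of the 20 high ones 1 had been, the Thy1 region in FAD input 2. Some regions are counted in both tables. Regions called in 1 library alone made up from 6.90% to 60.3% of a table, so no single share can be set beside these counts. The input also decides in part which regions are called, so the counts are not read as a difference between mice. By reads, the highest after Thy1 were in the input labelled FAD 1. At chr9:38654138-38654388, in an intron of AC069561.5 and 3070 bp from the olfactory receptor gene Olfr916, it held 180 reads, against 4 in FAD input 2 and 2 and 40 in FAD-BIX inputs. At chr17:4626053-4626580, inside the RNA gene Gm34259, it held 119, while FAD input 2 held 12 and the FAD-BIX inputs 4 and 20. In the FAD versus WT table the overlapping region there held 41 and 37 reads in WT and 118 and 11 in FAD. FAD input 2 was high at chr4:5884951-5885306, with 22 reads, against 0 in the input labelled FAD 1 and 1 and 2 in FAD-BIX inputs. The input labelled FAD 1 had no read at chr12:20229363-20229828, while the WT inputs held 21 and 25, FAD input 2 held 29 and the FAD-BIX inputs 34 and 14.

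Of the regions with the smallest p between FAD and WT inputs, few lay in named genes. Higher in FAD at an unadjusted p under 0.05 was a region in 1700006A11Rik (7 and 5 reads in WT, 23 and 13 in FAD), beside those near AY761185, Gm10354 and Thy1. In these 4 regions the groups did not overlap except at Thy1. Lower in FAD, besides the chromosome 8 block, was the region at chr17:91879323-91879867 between genes, with 16 and 17 reads in WT and 0 in both FAD inputs. Against a floor of 3 reads over both FAD inputs it was at least 7.88-fold lower in FAD. The FAD-BIX inputs held 4 reads each there. The region at chr12:39462353-39463282, 697 bp from the small RNA gene Gm24069, held 36 and 15 reads in WT and 2 and 4 in FAD. Each had an edgeR adjusted p of 0.722, and both regions lower in FAD were called in FAD ChIP 2 alone.

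Between FAD-BIX and FAD inputs the regions of smallest p held few reads and 0 passed with edgeR. The region 8431 bp from Tdpoz4, a gene of a cluster of BTB-domain genes active in oocytes and early embryos, had 1 and 2 reads in FAD inputs, 20 and 13 in FAD-BIX inputs and a log2 fold of 3.39 ± 1.08 (edgeR adjusted p = 0.996). Regions between genes on chromosomes 17, 18 and 12 had 0 to 8 reads in FAD inputs, and 11 to 24 in FAD-BIX. The 5 regions higher in FAD-BIX were called in FAD ChIP libraries alone, and the 5 lower ones in FAD-BIX libraries, 1 of them also in FAD ChIP 2. Among the lower ones, a region inside the RNA gene Gm20752 on chromosome 3 had 12 and 23 reads in FAD inputs, against 5 and 4 in FAD-BIX. A region in Mup-ps16, of the major urinary protein cluster on chromosome 4, had 20 and 19, against 4 and 9. The region nearest Sntb1, a syntrophin gene, had 32 and 23 reads in FAD inputs, against 14 and 4 in FAD-BIX.

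Among the gene lists, 0 regions passed in either comparison with edgeR. For multicopy loci such as Sfi1 and the Sp100, Sp110 and Sp140 nuclear body genes, 25 of 36 regions were tested between FAD and WT, with 0 at an unadjusted p under 0.05 and a median log2 fold of -0.24, beside -0.26 over all tested regions. Olfactory and vomeronasal receptor genes had 735 regions, of which 27 were tested, with a median of -0.25 and 1 lower at that p, at Olfr543 (19 and 20 reads in WT, 0 and 4 in FAD). Zinc-finger genes had 190 regions, of which 15 were tested, with a median of -0.28 and 1 lower, at Zfp992 (41 and 23 reads in WT, 3 and 11 in FAD). The smallest p higher in FAD was at Csprs, Olfr170 and Zfp978 in these lists, with 0 past an unadjusted 0.05. The list of genes known for copy-number differences between laboratory lines, Nnt, Glo1 and Ide among its 18 members, had 11 regions at 7 genes, and 0 were tested. They held 2.82 and 3.23 RPM in sum in WT, 1.18 in the input labelled FAD 1 and 2.78 in FAD input 2. Heart muscle genes had 2 tested regions (median 0.47), the smaller p at Actc1, glutamate receptor genes 1, in Gria1 (15 and 21 reads in WT, 5 and 30 in FAD), and H3K9 methyltransferase genes 0.

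The same lists showed as little between FAD-BIX and FAD inputs, with 0 regions at an unadjusted p under 0.05 in any list. The medians were 0.11 over 21 multicopy regions, -0.11 over 25 receptor regions, 0.52 over 11 zinc-finger regions and 0.03 over 4 heart muscle regions, beside 0.11 over all tested regions. The transgene list had a median of 0.76, from the 3 Thy1 regions. The smallest p of each list lay at Sp140, Vmn2r125, Zfp992, Actc1 and Gria1 among higher and at Csprs, Olfr170, Zfp988 and Myh6 among lower values.

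The highest inputs outside Thy1 were high in every mouse and lay at multicopy or unannotated loci as well as in introns of unique genes. The region with the highest mean was at chr15:75086378-75086929, between genes, with 86.3 and 148 RPM in WT and 90.2 and 121 in FAD inputs, and 88.1 and 68.9 in FAD-BIX inputs over the slightly longer region of the other table. The next, chr17:39847557-39848068, lies in Rn18s-rs5, a copy of the ribosomal RNA gene, and held 57.6 and 147 RPM in WT and 69.4 and 93.7 in FAD. Sfi1, a centrosome gene with many partial copies, held 43.8 and 61.8 in WT, 38.9 and 69.7 in FAD and 59.9 and 44.7 in FAD-BIX inputs. At all of these the WT and FAD inputs overlapped. At the chromosome 15 region both FAD-BIX inputs lay below both FAD inputs, which held 93.6 and 123 RPM over the longer region (edgeR adjusted p = 0.996). The same was true of the regions in Kctd16 and Aida named below, with the same adjusted p, but not of Sfi1. At the region in Gm40034 on chromosome 2 the input labelled FAD 1 was the highest of the 6, with 53.0 RPM, beside 42.3 and 31.0 in WT, 28.2 in FAD input 2 and 35.8 and 31.2 in FAD-BIX. A region in the first intron of Mdga2, a synaptic adhesion gene, spread the most of the 10 highest between FAD and WT, with 15.1 and 35.0 RPM in WT and 30.2 and 54.1 in FAD. A region in Kctd16 spread the least, from 32.2 to 37.8 RPM. The others were at chromosome 11 near Gm12223, with 23.1 to 36.8 RPM, and, in the FAD-BIX versus FAD table, in the first intron of Aida, with 13.1 to 25.9 RPM.

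Unplaced contigs, assembled pieces with no place on a chromosome, were dominated by 1 contig. JH584304.1, which carries AC149090.1, held most of the contig reads, with 664 and 804 RPM in WT and 506 and 711 in FAD inputs over 33 regions. In the other table it held 523 and 738 RPM in FAD and 863 and 486 in FAD-BIX inputs. In both tables the groups overlapped, and the mice of 1 group differed by up to 1.77-fold. FAD-BIX input 1 was above FAD-BIX input 2 on 9 of the 12 contigs of that table. GL456239.1 was next, with 37.5 and 44.3 RPM in WT and 27.6 and 31.0 in FAD, and the groups did not overlap. The same was true of GL456212.1 (26.7 and 24.7 against 23.4 and 19.1), GL456210.1 (8.17 and 7.44 against 5.43 and 4.24), GL456381.1 (3.79 and 4.15 against 2.72 and 2.12) and JH584299.1 (0.884 and 0.750 against 0.348 and 0.596), each lower in FAD. Among single regions, which mostly hold fewer reads than these sums, 24.9% were lower in this way. The share among summed bins was not counted, and their median log2 fold was -0.35. FAD-BIX inputs held 40.4 and 22.2 RPM on GL456239.1, above and below both FAD inputs. On GL456211.1, GL456221.1 and JH584292.1 the groups of the FAD versus WT table overlapped. GL456216.1 spread the most among contigs above 1 RPM on average, with 0.547 and 2.31 RPM in WT, 1.18 in the input labelled FAD 1, 3.84 in FAD input 2 and 1.22 and 0.646 in FAD-BIX. GL456372.1 and GL456385.1 held under 1 RPM in every input.

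**Figure D5:**
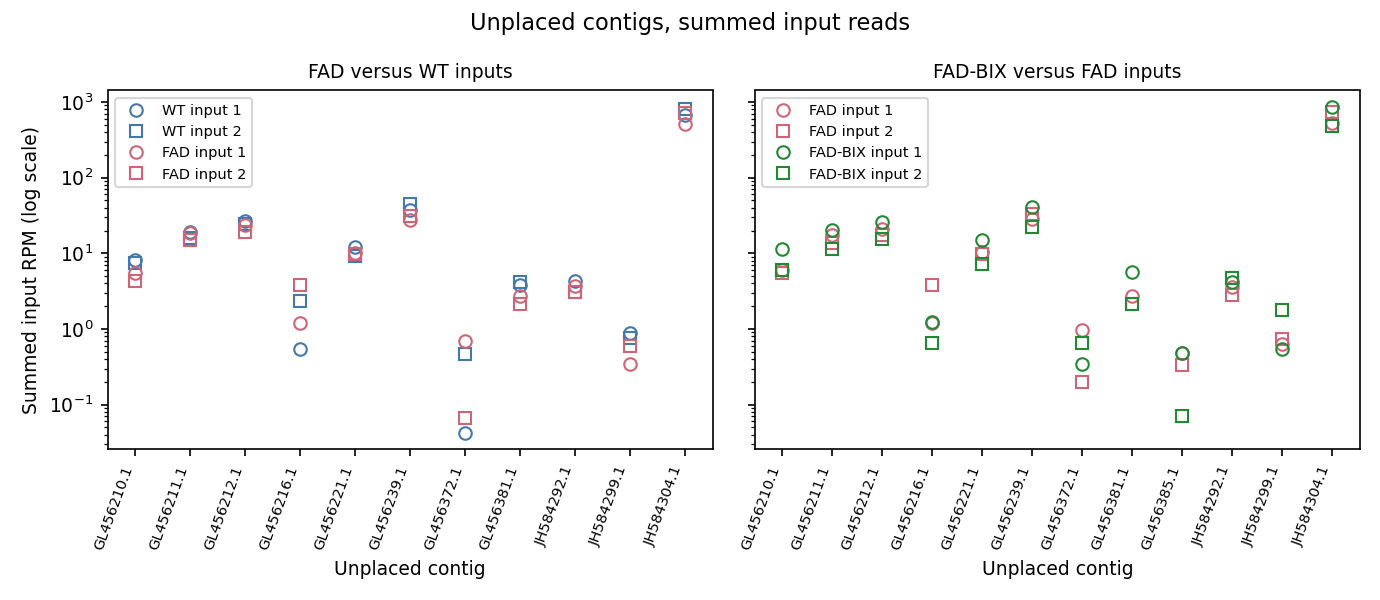
Summed input RPM on a log scale (vertical axis) of each unplaced contig (horizontal axis) in the FAD versus WT table (left) and the FAD-BIX versus FAD table (right), 1 point per mouse. JH584304.1 is the highest in every input, from 486 to 863 RPM.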

How the data were processed

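Input DNA of 6 mice was sequenced beside their ChIP libraries, as 50 bp single-end or 150 bp paired-end reads per the labels, which do not say which library had which. The submitters' processing notes name FastQC, Trimmomatic, BWA (0.7.12), MACS2 (2.1.0) and the build mm9. However, 99.7% of 3517 and 4010 genes matched by symbol overlapped their RefSeq position in GRCm38.p6, and coordinates are given as GRCm38. The labels and headers do not say whether positions count from 0 or from 1. The authors deposited 2 tables of regions, joined from calls made in each ChIP library. Per the file headers they hold raw read counts, RPM and other columns that mark the calling library. In each library the deposited RPM were proportional to the count plus 1 (largest relative deviation 4.75e-06), which gave the total reads. RPM in the text are counts over those totals, without the added 1.

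Repeated rows were dropped (34413 and 44428 rows to 33787 and 43680 regions), as were chromosome X (166 and 273 regions), Y (7 and 14) and an X contig (1 each). Input counts were tested by edgeR's quasi-likelihood test (edgeR 4.0.16, R 4.3.3) with library totals, factors of 1, its default filter on low counts and Benjamini-Hochberg adjustment at 0.05, per region and summed per 1 Mb bin or contig. The scripts were tested on simulated data with 200 changed features. The region test recovered 8.47% of 4-fold and 33.3% of 8-fold changes between FAD and WT. Between FAD-BIX and FAD it recovered 5.97% and 43.5%. Few real changes in single regions could thus be called. The test of bins recovered 58.8% and 19.1% of 2-fold changes and 90.6% and 86.9% of 4-fold changes in the respective comparisons. SE is the log2 fold over the square root of F. Alternatives were TMM, DESeq2 1.42.0, no filter, a replicate block, a threshold of 0.01, other region sets and bins, and each input left out. Poisson intervals and the floor of 3 reads cover counting error only. Labels say of the replicates only that each group is 2 mice, and p-values measure the spread between these samples.

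Members and lists were chosen with earlier results of these data known. The text names the 5 loci of smallest p in each direction (joined within 10 kb), the 10 loci of highest mean input, every contig, every region of Thy1 or App, and the smallest p of each list. Some items that this rule takes in are not reported here. Regions took the named gene they overlap, or else the one with the closest start. Regions and bins of chromosomes 8 and 5, and regions in which 1 mouse stood apart, were chosen after their values were seen.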

Additional observations from a re-analysis of the deposited data

How the results depend on the processing

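With TMM, DESeq2 (own size factors or library totals), no filter, a threshold of 0.01, regions within 1 kb joined, or only regions called in both groups, 0 regions were called in either comparison. Leaving out 1 input gave 1 to 3 regions between FAD and WT (Thy1 alone unless FAD input 2 was left out, when regions near Gm10354 and in Gm34259 were higher and one in an intron of March1 lower) and 0 to 2 between FAD-BIX and FAD (2 without FAD-BIX input 2, at Gm34259 and near Olfr916). With 1 input left out, the log2 fold of the Thy1 bin for FAD over WT ran from 0.79 (without FAD input 2) to 7.08 (without WT input 2). Bins called between FAD and WT numbered 3 with 5 Mb bins (Thy1 higher, 2 lower). The lower ones were on chromosomes 7 and 8, and neither held the chromosome 8 block from 20 to 21 Mb. They numbered 0 with TMM, with DESeq2 and its own size factors, without the Thy1 region and without regions called in FAD ChIP 2. Between FAD-BIX and FAD they numbered 0 to 1 (1 at Thy1, without FAD input 2). Leave-outs also change how many regions are tested, and the cause of the other changes was not tested. A lone library left in a group is assumed to vary like the others.

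With the replicate number as a block, 1 region (Thy1, log2 fold 4.76) and 2 bins (Thy1 and chromosome 8 from 20 to 21 Mb) passed between FAD and WT, and 0 of either between FAD-BIX and FAD. Deviations of same-numbered inputs correlated at 0.0688 and -0.149, so the numbers were not taken as pairs. With the pairs crossed, the FAD-BIX versus FAD comparison called 0 regions and 1 bin.

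With 1 input left out, the Thy1 log2 fold ran from 0.75 to 7.08 for FAD over WT and from -0.37 to 6.00 for FAD-BIX over FAD. Among 64 named regions and bins, 638 of 674 values under an alternative kept direction and side of the threshold, 10 passed it, 4 no longer did and 22 changed sign. Ranges of log2 folds over leave-outs that changed sign were, for FAD over WT, -0.16 to 0.52 (Csprs), -0.013 to 1.86 (Olfr170), -0.15 to 1.68 (Zfp978), -0.19 to 1.27 (Actc1), -1.37 to 1.13 (Gria1) and -0.30 to 1.14 (chromosome 5, 15 to 16 Mb). For FAD-BIX over FAD they were -4.02 to 0.10 (the region in Gm34259), -1.55 to 0.15 (its bin), -0.92 to 1.32 (Actc1), -1.01 to 0.31 (Myh6), -0.56 to 1.87 (Gria1), -1.22 to 0.43 (chromosome 5, 15 to 16 Mb), -0.27 to 6.25 (the Thy1 bin) and -0.11 to 0.19 (chromosome 8, 20 to 21 Mb). The last was -0.023 with TMM, -0.020 with DESeq2's own size factors, and -0.37 without regions called in FAD ChIP 2.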
